A study of Mus musculus with 36 samples.

Results

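The regions described here had the late replication state in both mouse B cell maps and the middle state in the map named for mouse embryonic fibroblasts (MEFs). Only early and late S phase were sorted, so the middle state does not by itself place replication in mid S phase. They were chosen by the measured states themselves, as autosomal 20 kb bins with the late state in CH12 shLacZ cells and in wild-type (WT) primary B cells and the middle state in the MEF WT map, after bins of only unknown bases were dropped. There were 13308 such bins, or 266 Mb, among 119839 autosomal bins with at least 1 known base, and adjacent bins merged into 676 runs. Replication timing had been measured by Repli-seq in 36 libraries of 7 groups of B cells with or without RIF1, a regulator of replication timing, or MCM6, a subunit of the replicative helicase. The CH12 map came from 4 libraries, 2 replicates each of the early and the late S phase fraction, of the mouse lymphoma line CH12 (clone F3), a B cell model, whose cells carried a lentiviral short hairpin against LacZ as an infection control and were stimulated with IL4, CD40 and TGF beta. The primary B map came from 4 libraries, again 2 replicates of each fraction, of activated splenic B cells of Rif1+/+ mice, whose age the labels do not give. The labels tie the MEF WT map to no sample, and its reads were taken by the study from an earlier dataset. The other 5 groups were not analysed here. Timing maps measure DNA only and hold no marker level by which the labelled cell types could be checked.

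In every S phase a mammalian cell copies its chromosomes in a set order. Gene-rich, transcribed chromatin of high GC content usually replicates early, and gene-poor chromatin at the nuclear lamina replicates late. Large domains change their place in this order as cells differentiate, and developmental genes that a lineage does not use often lie in domains that are late in that lineage and earlier in another. In Repli-seq, cells incorporate the thymidine analogue BrdU, are sorted by DNA content into early and late S phase, and the labelled DNA of both fractions is sequenced, so that early over late reads, as a log2 ratio, give the timing of each stretch.

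The deposited maps hold domains with a state number and no timing value. In each map a pair of states touched in 0 places, which made the remaining state the middle one, and of the pair the state with more protein-coding gene starts per Mb was read as early. This gave 18.8, 9.35 and 3.77 starts per Mb in the early, middle and late state of CH12 cells, 17.6, 7.87 and 2.92 in primary B cells, and 16.1, 6.66 and 3.35 in MEFs. How close a bin lay to a change of state cannot be given without the timing values, and replicates were merged by the authors, so that each condition had 1 map, no value carries a replicate error, and no test between conditions was possible. Depth per sample is unknown here. The Wilson 95% intervals below cover the counting of bins or genes only, and neighbouring bins or genes were not independent.

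The bases just before the starts of Sema3a and Lama1, listed genes in 2 of the 10 longest runs, and of an olfactory receptor gene from the longest run with such genes, are shown because CpG-rich starts are common in early-replicating chromatin and can be compared with these directly. The sequences were read from mm9, run 5′ to 3′ on the strand of the gene and end at the last base before its annotated start, with every CpG in capitals.
Sema3a, chr5:13125343-13125592, + strand: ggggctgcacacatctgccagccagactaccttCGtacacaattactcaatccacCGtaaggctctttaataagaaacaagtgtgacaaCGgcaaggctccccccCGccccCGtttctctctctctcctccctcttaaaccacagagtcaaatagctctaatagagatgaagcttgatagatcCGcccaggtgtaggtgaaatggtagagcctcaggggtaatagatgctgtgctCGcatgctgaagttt
Lama1, chr17:68046355-68046604, + strand: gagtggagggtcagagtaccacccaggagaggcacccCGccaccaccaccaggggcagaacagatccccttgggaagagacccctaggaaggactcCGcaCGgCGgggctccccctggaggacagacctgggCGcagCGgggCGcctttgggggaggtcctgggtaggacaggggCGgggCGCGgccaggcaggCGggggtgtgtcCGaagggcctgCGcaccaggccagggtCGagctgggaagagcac
Olfr444, chr6:42905208-42905457, + strand: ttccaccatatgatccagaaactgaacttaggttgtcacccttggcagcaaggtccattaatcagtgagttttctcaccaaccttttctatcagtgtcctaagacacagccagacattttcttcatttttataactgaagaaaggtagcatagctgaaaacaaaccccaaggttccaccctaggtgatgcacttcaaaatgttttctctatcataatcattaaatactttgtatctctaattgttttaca

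Sema3a, a secreted axon repellent, had 7 CpG in these 250 bases. The window of Lama1, a laminin alpha chain of basement membranes, had 14 CpG and a GC content of 71.2%. Their observed over expected CpG ratios were 0.456 and 0.455, below the limit of 0.6 used further on for a CpG-rich start. The olfactory receptor gene Olfr444 had 0. Over all 832 genes that started in the regions the median was 3 CpG per window, against 1 for genes late in all 3 maps, 7 for genes late in both B maps and early in MEFs, and 9 over 21276 autosomal protein-coding genes. The dinucleotide CG, which reads the same on both strands, was missing from 13.7% of the 832 windows. It was missing from 30.5% of the windows late in all 3 maps and from 7.43% of all windows. Sensory receptor genes (olfactory, vomeronasal, taste and trace amine) took part in this. Without them these shares were 11.8%, 18.4% and 4.84%, and the medians 4, 2 and 10 CpG.

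A start was called CpG-rich here if its window had an observed over expected CpG ratio above 0.6 and a GC content above 50%. Bases after the start were not counted, so CpG-rich stretches that lie there were missed. Of the 832 windows, 180 qualified (21.6%, Wilson 95% interval 18.97 to 24.56%). The share was 8.52% (7.26 to 9.96%) of 1644 genes late in all 3 maps and 31.3% (22.9 to 41.1%) of 96 genes late in both B maps and early in MEFs. It was 38.6% over all genes. Sensory receptor genes weighed on these shares, mostly in bins late in all 3 maps, where they were 675 of the 1644 genes. Of the 58 that started in the regions, 0 qualified. This allows a share of up to 5.17% when 3 counts are taken as the limit. Without sensory receptor genes, the shares were 23.3% (20.4 to 26.4%) in the regions and 14.3% (12.3 to 16.7%) in bins late in all 3 maps. The intervals count each gene as separate, although genes of tandem families shared runs.

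The regions took up 11.1% of the autosomal bins (Wilson 95% interval 10.9 to 11.3%). Of 44138 bins late in both B maps, they made up 30.2% (29.7 to 30.6%), bins late in all 3 maps 67.2% and bins early in MEFs 2.67%. Over all autosomal bins 37.1% had the middle state in MEFs. The late state covered 29.1% of them in MEFs, 38.3% in primary B cells and 50.0% in CH12 cells. As MEFs had only 34853 late bins, not all of the 44138 could be late there. The share of 30.2% thus depends in part on how many bins each map called late. Of bins early in both B maps 12.04% were middle in MEFs, and of bins middle in both B maps 60.9%. These shares follow from the states that chose the regions and describe them only. Put the other way, 29.9% of all MEF middle bins were late in both B maps.

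Every autosome held such runs. As a share of the bins late in both B maps, the regions came to 30.4% ± 6.11 (SD over 19 autosomes), from 22.7% on chromosome 1 to 42.3% on chromosome 13, with 39.8% on chromosome 15 and 38.1% on chromosome 2. As a share of all bins, they were lowest on chromosome 19 at 4.33%, where only 17.4% of bins were late in both B maps, and highest on chromosome 15 at 15.2%. Chromosome 19 had 8 runs and chromosomes 2 and 3 had 49 each. Chromosome 13 also had the largest share of bins that were early in MEFs, 5.76% of those late in both B maps, and chromosome 12 had the smallest, 0.0878%.

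**Figure D1:**
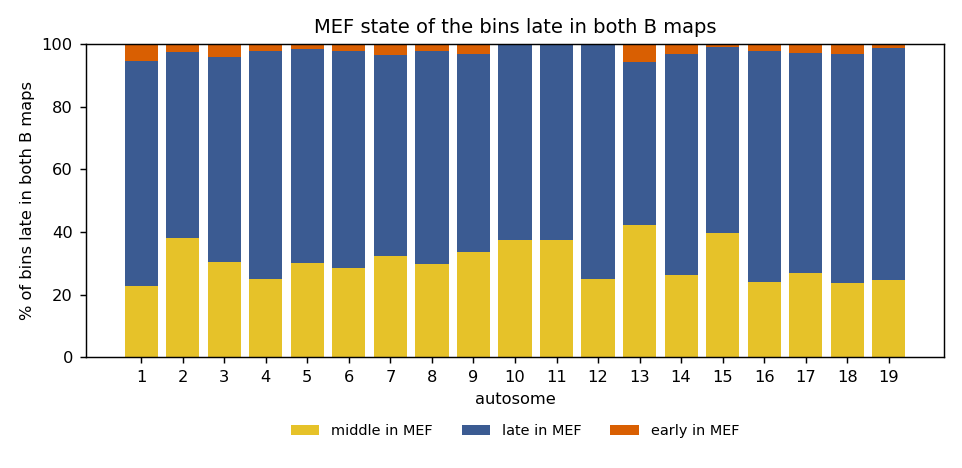
Stacked bars give, for each autosome, the share (%) of 20 kb bins late in both B maps that had the middle (yellow), late (blue) or early (orange) state in the MEF map. The yellow part runs from 22.7% on chromosome 1 to 42.3% on chromosome 13.

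The runs had a median length of 280 kb (quartiles 120 and 500 kb), from 33 runs of 1 bin to a run of 2580 kb. The maps were smoothed over 300 kb, and 346 runs were shorter than that, but the 330 runs of at least 300 kb held 11044 bins, or 83.0%. The 55 runs of at least 1000 kb lay on 17 autosomes and held 30.5% of the bins. In 340 runs no protein-coding gene started, 162 runs held 1 start and 174 held more. The longest run with no start covered 1360 kb at chr3:146560001-147920000.

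**Figure D2:**
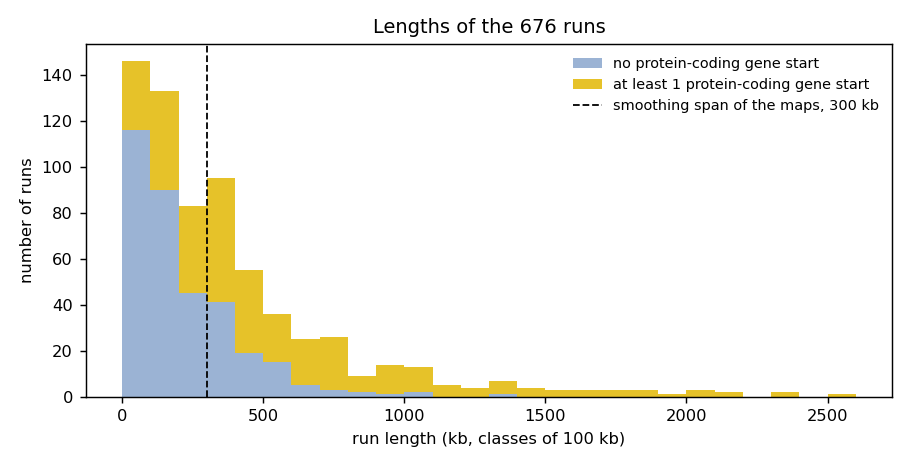
Histogram of the lengths of the 676 runs in classes of 100 kb, with the number of runs on the vertical axis, divided into runs with no protein-coding gene start (blue) and with at least 1 (yellow). The dashed line marks the smoothing span of 300 kb, below which 346 runs lie.

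The longest run, at chr2:135540001-138120000, held Jag1, a ligand of Notch receptors, Snap25, a core protein of synaptic vesicle fusion, Mkks, a chaperonin-like protein of the primary cilium, the kinase gene Pak7, Ankrd5 and Btbd3. It was a MEF middle domain of 2580 kb in full, between an early and a late domain, inside a late domain of 6620 kb in CH12 cells and 6500 kb in primary B cells. The next, chr7:100920001-103320000, was nearly free of genes over 2400 kb: gene bodies covered 0.152% of it, and Odz4, a teneurin of neuronal connections, started near its end and reached out of it. The third, chr15:41860001-44220000, held Angpt1, the ligand of the endothelial receptor Tie2, Rspo2, a secreted amplifier of Wnt signalling, the translation factor gene Eif3e, Ttc35, Tmem74 and Trhr, the receptor of thyrotropin-releasing hormone. It filled a late domain of primary B cells of 2360 kb from end to end, whereas the late domain of CH12 cells around it measured 12500 kb. The fourth, chr5:12180001-14360000, held Sema3d, Sema3a and Sema3e, 3 secreted semaphorins, and Speer3, and had late bins of all 3 maps on both sides.

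**Figure D3:**
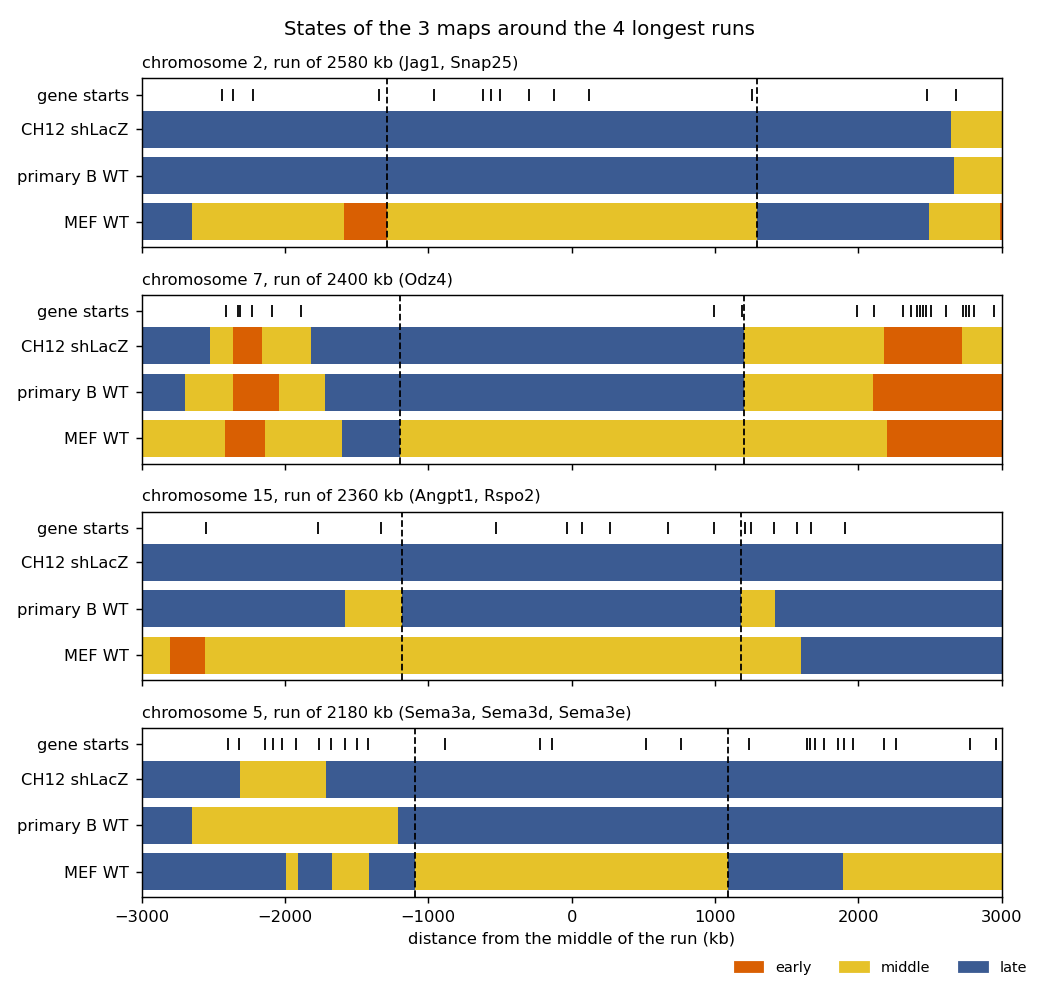
States of the 3 maps (orange early, yellow middle, blue late) in 20 kb bins within 3000 kb of the middle of the 4 longest runs, with ticks for bins that hold a protein-coding gene start and dashed lines at the ends of the run. Between the lines both B maps are late and the MEF map is middle throughout; the run on chromosome 15 ends where primary B cells turn middle, and that on chromosome 5 ends where MEFs turn late.

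The other 6 of the 10 longest runs measured 1900 to 2120 kb. They were chr1:10540001-12660000 with Cpa6, a carboxypeptidase, and Prex2, an exchange factor of Rac, and chr4:83940001-86040000 with Bnc2, a zinc finger protein of connective tissue, Cntln, Sh3gl2 and Adamtsl1, a secreted matrix glycoprotein. The run chr13:25400001-27500000 held 9 genes of the prolactin family, hormones of pituitary and placenta, besides Prl itself and Hdgfl1. The run chr6:5540001-7620000 held Dlx5 and Dlx6, homeobox transcription factors of the facial skeleton and forebrain, Tac1, which encodes substance P, Dync1i1, Slc25a13, Shfm1 and Acn9. The run chr17:66960001-68880000 held Lama1, the receptor phosphatase gene Ptprm, Arhgap28, L3mbtl4 and Lrrc30, and had the highest GC content of the 10, 43.4%. The run chr5:15160001-17060000 held Hgf, the ligand of the Met receptor, Cacna2d1, a calcium channel subunit, and Speer4c and Speer4f. Mean GC content in the other 9 lay between 37.2 and 41.1%.

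A run ended where at least 1 map changed its state, or, at 12 of 1352 ends, where no bin with known bases and a state followed. Of the 1352 ends, 627 (46.4%, Wilson 95% interval 43.7 to 49.0%) were places where primary B cells alone turned middle, and 534 (39.5%, 36.9 to 42.1%) places where MEFs alone turned late. At 82 ends CH12 cells alone turned middle and at 77 MEFs alone turned early. Both B maps turned together, with MEFs still middle, at 11 ends. Primary B cells alone thus ended more runs than CH12 cells alone, and late domains covered 38.3% of autosomal bins in primary B cells and 50.0% in CH12 cells. At 100 kb outside the run, MEFs alone were late at 39.2% of ends and primary B cells alone middle at 35.1%, and both B maps had left the late state, with MEFs still middle, at 11.2%.

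In the MEF map, 51.95% of the bins (51.1 to 52.8%) lay in middle domains between an early and a late domain, 24.6% (23.9 to 25.4%) in middle domains between 2 late domains, 22.9% (22.2 to 23.6%) between 2 early domains and 0.534% at a chromosome end. Over all MEF middle bins the shares were 49.0%, 17.04%, 32.4% and 1.54%. Of 1042 MEF middle domains on autosomes, 585 held at least 1 of these bins, and 106 consisted of them throughout. Of these 106, 72 lay between 2 late domains, 27 between an early and a late domain and 7 between 2 early domains. Their median length was 400 kb. All 1042 domains divided into 207, 493 and 309 of these kinds, with 33 at a chromosome end. The counts come from the same maps that chose the bins and describe them only.

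In the B maps the bins lay nearer to the edges of their late domains than bins late in all 3 maps. The median distance to the nearest edge was 520 kb in CH12 cells and 260 kb in primary B cells. Bins late in all 3 maps had 960 and 720 kb. Bins late in both B maps and early in MEFs lay nearer still, at 400 and 180 kb. In primary B cells 23.1% of the bins of the regions were within 100 kb of an edge, and in CH12 cells 5.32%. Of bins late in all 3 maps 6.73% and 2.15% were, and of bins early in MEFs 29.2% and 10.1%. In the median, the late domain around a bin of the regions measured 2540 kb in CH12 cells and 1700 kb in primary B cells. Around bins late in all 3 maps it measured 4020 and 3300 kb. Of 608 late domains of primary B cells on autosomes, 122 were made up of bins of the regions alone, 369 in part and 117 held none. In CH12 cells 2 of 690 late domains were made up of them alone, 423 in part and 265 held none. These positions share the domain calls with the rule, and whether bins near an edge differ by timing or by the smoothing was not tested.

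GC content, which the rule did not use, was 40.2% in the mean over the bins, 38.2% in bins late in all 3 maps and 41.7% in bins late in both B maps and early in MEFs, with 41.9% over all autosomal bins. The spread over bins was wide, with an SD of 2.62 points in these bins and 2.39 points in bins late in all 3 maps. Taken by autosome, GC content exceeded that of bins late in all 3 maps by 1.98 points ± 0.607 (SD, 19 autosomes), by 1.04 points at the least on chromosome 13 and 3.39 at the most on chromosome 11, and was higher on 19 of 19. Bins early in MEFs exceeded these bins by 1.58 points ± 1.81, on 16 of 19 autosomes. The lowest difference, -1.73 points, was on chromosome 12 and the highest, 4.68 points, on chromosome 10. There bins early in MEFs made up only 0.0878% and 0.170% of bins late in both B maps, so that both values rest on very few bins. Bins above 42% GC made up 22.4% of the bins, 6.86% of those late in all 3 maps and 41.7% of those early in MEFs. Without bins within 100 kb of any domain edge the difference from bins late in all 3 maps was 2.02 points.

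CpG density followed the same order. It was 6.92 per kb in these bins, 5.44 in bins late in all 3 maps and 7.99 in bins early in MEFs, and by autosome the difference from bins late in all 3 maps was 1.48 per kb ± 0.430, higher on 19 of 19. All of these values lay below the 8.51 per kb of all autosomal bins.

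**Figure D4:**
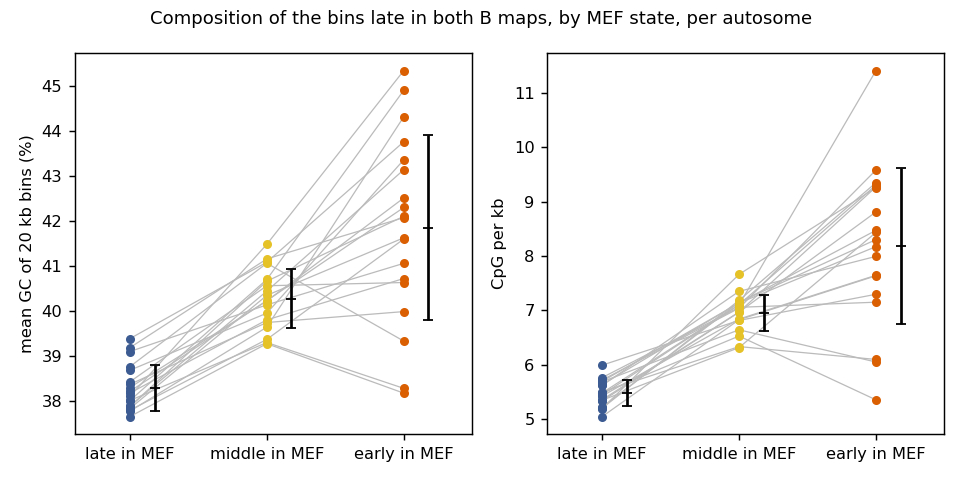
Mean GC content (left, %) and CpG per kb (right) of bins late in both B maps that were late, middle or early in MEFs, 1 point per autosome, with grey lines joining the points of an autosome and bars for mean ± SD over 19 autosomes; the vertical axes do not start at 0. Each of the 19 lines rises from late to middle in both panels, whereas from middle to early 16 of 19 rise. Very few bins of chromosomes 10 and 12 were late in both B maps and early in MEFs.

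Protein-coding genes started at 3.13 per Mb in the regions, against 2.77 per Mb in bins late in all 3 maps, 4.07 in bins early in MEFs and 8.88 over all autosomes. By autosome the difference from bins late in all 3 maps was 0.19 per Mb ± 2.40, positive on 13 of 19, and thus lay within the spread between autosomes. Sensory receptor genes took part in this, with 58 of 832 starts in the regions and 675 of 1644 in bins late in all 3 maps. Without them the densities were 2.91 and 1.63 per Mb. The genes had a median length of 16.985 kb (quartiles 3.05 and 109 kb), against 15.6 kb over all autosomal genes and 2.69 kb in bins late in all 3 maps, or 19.9 kb against 9.27 kb without sensory receptor genes. Gene bodies covered 32.05% of the bases in the regions and 20.2% in bins late in all 3 maps. They covered 35.4% in bins early in MEFs and 39.5% over all autosomes. The whole body lay in the regions for 673 of the 832 genes (80.9%).

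Very long genes were counted apart. Of 188 autosomal genes above 500 kb, 42 (22.3%) started in the regions and 61 (32.4%) in bins late in all 3 maps. These shares stand beside 3.91% and 7.73% over all 21281 autosomal protein-coding genes. Ptprm, Cdh18, which encodes a neuronal cadherin, and Kcnma1, the large-conductance potassium channel, lay in the regions over their whole length, but only 5 of the 42 did so and the median share of the body in them was 49.7%. Odz4 and Robo2 lay almost wholly outside, with 0.0334% and 6.17% of the body inside.

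Genes were then read by lists, which had been drawn up with earlier results of these data known and so give a description only. Of 2572 protein-coding genes that started in bins late in both B maps, 32.3% were in MEF middle bins. Sensory receptor genes lowered this share. Without them, 774 genes started in MEF middle bins, 969 in MEF late bins and 96 in MEF early bins. For secreted signalling ligands this was 14 of 20, with 4 late and 2 early in MEFs, and for fibroblast collagen and matrix genes 9 of 13, with 1 late and 3 early. For mesenchymal regulators and growth factor receptors it was 9 of 14, for lineage transcription factors outside blood 13 of 21, for axon guidance genes 10 of 19 and for Adam, Adamts and Mmp proteases 9 of 18. For cadherins it was 8 of 27, for ion channels and neurotransmitter receptors 14 of 50, for synaptic adhesion genes 4 of 31 and for olfactory receptor genes 36 of 562. In these last lists most of the remaining genes were late in MEFs as well.

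**Figure D5:**
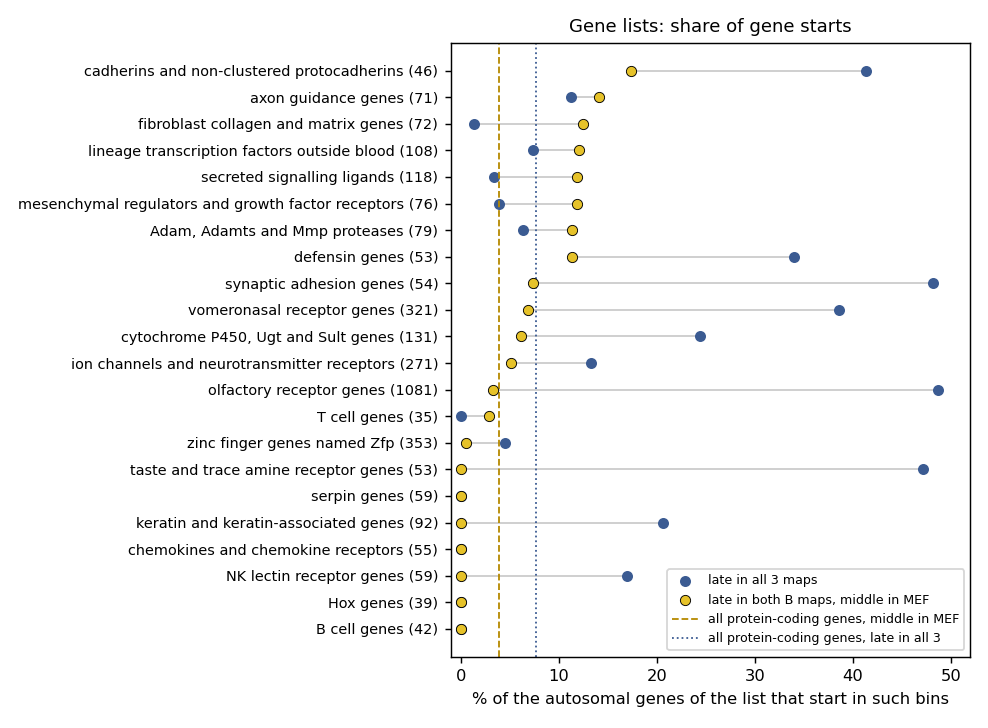
For each gene list, with the number of its autosomal genes in parentheses, the share (%) of gene starts in bins late in both B maps and middle in MEFs (yellow) and in bins late in all 3 maps (blue, hidden behind yellow where both are 0). The lines mark the shares over all protein-coding genes, 3.91% (dashed) and 7.73% (dotted); cadherins reach 17.4% and fibroblast matrix genes 12.5%.

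Of 118 secreted ligands, 14 (11.9%) started in the regions. The 6 in the longest runs were Angpt1, Rspo2, Hgf, Bdnf, a neurotrophin, Wnt5a, a ligand of non-canonical Wnt signalling, and Nrg1, a ligand of ErbB receptors. Angpt1 and Rspo2 shared the 2360 kb run on chromosome 15, Hgf lay in a run of 1900 kb and Bdnf in a run of 1860 kb. Wnt5a, at chr14:29317936-29340633, lay in a run of 1780 kb and within a MEF middle domain between 2 early domains. Nrg1 lay in a run of 1540 kb on chromosome 8. At the other end Bmp2, a bone morphogenetic protein, started in a run of 160 kb that held 19.6% of its body, and Bmp3 in a run of 60 kb, shorter than the smoothing span.

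Families of ligands were divided between timing states. Of 7 class 3 semaphorins, Sema3a, Sema3d and Sema3e were late in both B maps and middle in MEFs, Sema3c was middle in all 3 maps, and Sema3b, Sema3f and Sema3g were early in all 3. Of 4 R-spondins, Rspo2 and Rspo3 belonged to the regions and Rspo1 was early in all 3 maps. Of 8 Bmp genes, Bmp2, Bmp3 and Bmp4 belonged to the regions, Bmp1 and Bmp10 were early in all 3 maps and Bmp5 was middle in all 3. These families were picked after their states were seen.

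Of 72 fibroblast collagen and matrix genes, 9 (12.5%) started in the regions, 21 were early in all 3 maps and only Spock3 was late in all 3. Lama1 lay in a run of 1920 kb, and Lama2, the laminin alpha chain of muscle basement membranes, in a run of 1240 kb on chromosome 10. Has2, a hyaluronan synthase, lay in a run of 1160 kb at chr15:56497182-56526094, and Fbn2, a fibrillin of elastic fibres, in a run of 1100 kb that held 54.4% of its body. Col11a1, a fibrillar collagen chain, lay in a run of 760 kb, in a MEF middle domain between 2 late domains. Lum, Kera and Epyc, neighbouring genes of small leucine-rich proteoglycans, shared a run of 720 kb on chromosome 10, whose primary B late domain ended 40 kb from the bin of Lum. Dcn next to them was late in CH12 cells but middle in primary B cells and MEFs. Mmp2, a gelatinase, lay in a run of 720 kb on chromosome 8 together with Irx6. The 3 matrix genes late in both B maps and early in MEFs were Col3a1, Col5a2 and Postn.

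Of 76 mesenchymal regulators and growth factor receptors, 9 (11.8%) started in the regions. Dlx5 and Dlx6 lay in the 2080 kb run on chromosome 6, whereas Dlx1, Dlx2, Dlx3 and Dlx4 were early in all 3 maps. Tshz3, a zinc finger protein of smooth muscle development, lay in a run of 1640 kb, Osr1, a regulator of kidney and limb mesenchyme, in a run of 1540 kb and Gli3, an effector of Hedgehog signalling, in a run of 920 kb. Tbx18, a T-box factor, lay in a run of 700 kb, Meox2 in a run of 460 kb and Kit, the receptor of stem cell factor, in a run of 340 kb. Nfib started in a run of 260 kb. Gli2 and Prrx1 were early in MEFs, and Foxp2, Alx1 and Pax9 were late in all 3 maps.

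Lineage transcription factors outside blood had 13 of 108 genes (12.04%) in the regions. Lhx8, a LIM homeobox factor of forebrain neurons and teeth, lay in a run of 1760 kb, at the edge of its primary B late domain. Irx1 and Irx2, Iroquois homeobox factors, shared a run of 1320 kb on chromosome 13, and Irx6 lay in a run of 720 kb, whereas Irx3 and Irx4 were middle in all 3 maps. Eya4, a transcriptional coactivator with phosphatase activity, lay in a run of 720 kb. Myf5 and Myf6, adjacent myogenic factors, shared a run of 660 kb on chromosome 10 inside a MEF middle domain between 2 late domains. The 8 genes of this list that were late in all 3 maps included Sox2, Atoh1 and Isl1. No Hox gene of 39 started in the regions, which allows a share of up to 7.69%. Of these 39, 0 started in bins late in both B maps.

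Of 71 axon guidance genes, 10 (14.1%) started in the regions. Beside the semaphorins these were Slit2, a ligand of Robo receptors, in a run of 1780 kb, the Robo receptor genes Robo1 and Robo2 in runs of 500 and 260 kb, Flrt3 and Flrt2, leucine-rich membrane proteins, in runs of 1440 and 1040 kb, Unc5c, a netrin receptor, in a run of 740 kb and Epha3, an ephrin receptor, in a run of 280 kb. Robo1, Robo2 and Epha3 started in the regions but extended into bins of other states, with 35.7%, 6.17% and 1.24% of the body inside. Another 8 guidance genes, among them the netrin receptor gene Dcc, were late in all 3 maps.

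Cadherins and non-clustered protocadherins had 8 of 46 genes (17.4%) in the regions and 19 (41.3%) in bins late in all 3 maps. Fat4 and Fat1, giant atypical cadherins, lay in runs of 1700 and 1140 kb, Cdh11, a cadherin of mesenchymal cells, in a run of 1600 kb, Pcdh18 and Cdh18 in runs of 1320 kb each and Cdh2, N-cadherin, in a run of 640 kb. Cdh13 had 18.5% of its body inside and Cdh4, which started in a run of 20 kb, had 0.627%. Synaptic adhesion genes had 4 of 54 (7.41%) in the regions, Ctnna2, Lrrtm1, Opcml and Cadm1, and 26 (48.1%) in bins late in all 3 maps.

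Of 271 ion channels and neurotransmitter receptors, 14 (5.17%) started in the regions and 36 (13.3%) in bins late in all 3 maps. The 6 in the longest runs were Cacna2d1 in 1900 kb, the glutamate receptor genes Gria1 and Gria2 in 1400 and 680 kb, the potassium channel genes Kcna4 and Kcnma1 in 1200 and 980 kb, and Chrm2, a muscarinic receptor, in 1020 kb. Of 79 Adam, Adamts and Mmp genes 9 (11.4%) started in the regions, with Adamtsl1, Adamts9, Adamts19 and Adamts3 in runs of at least 1020 kb, Mmp2 in its run of 720 kb, Adam7 in a run of 340 kb and the neighbours Adam24, Adam25 and Adam39 in a run of 200 kb.

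Families of genes in tandem were described by count. Over all protein-coding genes 3.91% started in the regions and 7.73% in bins late in all 3 maps. All 16 Sprr genes, which encode small proline-rich proteins of the epidermal envelope, started in a run of 400 kb on chromosome 3, and 16 of 26 prolactin family genes started in 2 runs, with 0 of the 26 late in all 3 maps. On chromosome 18, 14 of 21 Pcdhb protocadherin genes lay in a run of 300 kb and 7 of 13 Spink protease inhibitor genes in a run of 640 kb. Of 20 Ces genes 3 started in the regions and 5 in bins late in all 3 maps, and of 9 Speer genes 3 and 5. The families up to here stand on none of the lists and were picked after their states were seen. A run of 620 kb on chromosome 6 held 17 genes with olfactory receptor names, including pseudogene names that the list of these receptors leaves out. The listed olfactory receptor genes had 36 of 1081 (3.33%) in the regions and 526 (48.7%) in bins late in all 3 maps. Vomeronasal receptor genes had 22 of 321 (6.85%) and 124 (38.6%). Defensin genes had 6 of 53 (11.3%) and 18 (34.0%), and genes of cytochrome P450, Ugt and Sult enzymes 8 of 131 (6.11%) and 32 (24.4%). Zinc finger genes named Zfp had 2 of 353 (0.567%), Zfp385b and Zfp462. Reads were kept only where they aligned uniquely, and the coverage of such near-identical genes is unknown here.

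Lists of blood cell genes were read in the same way. Of 42 autosomal B cell genes 0 started in the regions, which allows a share of up to 7.14%, and of 35 T cell genes only Themis, a signalling protein of thymocytes, did so, in a run of 260 kb within late domains of both B maps. At the share over all genes 1.64 of the 42 B cell genes and 1.37 of the 35 T cell genes would lie there, so that neither count sets its list apart. Chemokines and their receptors, serpins, keratins, NK lectin receptors and taste and trace amine receptors also had 0 genes in the regions, out of 55, 59, 92, 59 and 53, which allow shares of up to 5.45%, 5.08%, 3.26%, 5.08% and 5.66%. Of the B cell genes, chemokines and their receptors and serpins, 0 started in bins late in both B maps, whatever the MEF state. Keratins, NK lectin receptors and taste and trace amine receptors had 19, 10 and 25 such genes, all late in MEFs as well.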

How the data were processed

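Repli-seq domain maps of CH12 shLacZ cells, WT primary B cells and MEFs were analysed. Per the study's methods and the submitters' processing notes, the authors trimmed reads with Trim Galore 0.6.5, aligned them to mm9 with BWA 0.7.17, kept unique alignments with SAMtools 1.9, merged replicates, removed duplicates, computed log2 ratios of early to late reads in 20 kb windows with deepTools, smoothed them by loess over 300 kb and segmented them into 3 states with hmm_bigwigs. The deposited files give domains and state numbers, with no counts, ratios or replicates. Merging removes replicate error, smoothing blurs edges below 300 kb, and state limits can differ between maps, as can the source and processing of the MEF reads.

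Here domains were assigned to 20 kb bins of the NCBIM37 (mm9) reference, and all 60 chromosome ends of the 3 maps matched it. Genes were those of GENCODE M1, placed by their start on their own strand, with 137 protein-coding records of a repeated symbol merged. GC and CpG were counted over known bases. A CpG window was the 250 bases before a start, and 5 windows with unknown bases were left out. Wilson 95% intervals came from scipy 1.17.1 (Python 3.11.15, pandas 2.3.3). Runs, shares and composition differences were tested on simulated data. By rule, the genes named start in the 10 longest runs, or stand on 1 of 22 lists and start in the regions. For lists with over 12 such genes, the rule took the 6 in the longest runs. Some further genes of these lists, and some families given by count, were named with their states known. The regions and lists were chosen with earlier results of these data known. Some sequences and genes are not reported here.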

Additional observations from a re-analysis of the deposited data

Results flagged for a closer look

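Chromosome X was outside the autosomal regions described and showed the same combination of states. Of 4057 X bins late in both B maps, 308 (7.59%, Wilson 95% interval 6.82 to 8.45%) were middle in the MEF map and 3749 were late, against 30.2% middle on the autosomes, whereas 37.3% of all X bins were middle in MEFs.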

How the results depend on the processing

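No paired analysis was possible because each map joins its replicates. Of 49 alternative values 38 stayed within the limits set for them, 11 moved and 0 reversed. These limits differed between kinds of value, so the tally does not measure stability. Counting any overlap of the gene body gave 3.91 in place of 3.13 genes per Mb and was not called moved. A change from 51.95 to 50.6% of bins was called moved. Keeping bins of unknown bases gave 10.8% of autosomal bins, and adding chromosome X gave 10.6% of bins and 28.3% of bins late in both B maps. Without bins up to 100 kb from a domain edge the share was 23.7% of bins late in both B maps. Runs of at least 300 kb numbered 330 with a median of 500 kb, and within them 50.6% of bins lay in MEF middle domains between an early and a late domain, 24.9% between 2 early domains and 0.389% at a chromosome end. The last share was 0.850% with MEF domains under 100 kb joined to their neighbours. Starts of all gene types numbered 6.50 per Mb. Leaving out sensory receptor genes was added after seeing the data. All 15 lists with genes in the regions kept counts within 1.5 times when at least 50% of the gene body had to lie there. Counts of bins say nothing of depth, which is unknown here.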

Other observations

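Some genes of microRNAs with an assigned name lay in the regions. Of 482 on the autosomes, 19 (3.94%) started in 12 runs, and 14 (2.90%) in bins late in all 3 maps, close to the 3.91% of protein-coding genes that started in the regions. Over all annotated miRNA genes, most without such a name, the counts were 98 of 1468 (6.68%) and 169 (11.5%), so that the order of both classes was the opposite. Many of the 98 lay in a single run of 980 kb on chromosome 7, with Mir344 and related genes. Symbols of 17 of the 19 matched the RefSeq table (GRCm38.p6), from which the mature sequences below come, with the seed, bases 2 to 8, in capitals. Those shown lay in clusters or are well-known regulators of development and were picked after their states were seen.
miR-30a-5p: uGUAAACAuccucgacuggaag
miR-30c-5p: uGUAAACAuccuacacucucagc
miR-216a-5p: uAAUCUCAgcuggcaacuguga
miR-216b-5p: aAAUCUCUgcaggcaaauguga
miR-217-5p: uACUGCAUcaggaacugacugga
miR-99a-5p: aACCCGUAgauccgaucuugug
let-7c-5p: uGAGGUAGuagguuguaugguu
miR-125b-5p: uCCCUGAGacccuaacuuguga
miR-218-5p: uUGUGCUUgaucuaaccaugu
miR-204-5p: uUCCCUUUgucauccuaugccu

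Mir30a and Mir30c-2, which share the seed GUAAACA, lay in a run of 480 kb on chromosome 1. Mir216a, Mir216b and Mir217 shared a run of 520 kb on chromosome 11, and Mir99a, Mirlet7c-1 and Mir125b-2 a run of 980 kb on chromosome 16. Mir218-1 lay within the body of Slit2 and Mir490 within that of Chrm2. Mir204 lay in a run of 440 kb on chromosome 19. Other members of these families elsewhere in the genome have the same or similar mature sequences, and the states describe these loci only.

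Over all gene types 4.995% of genes started in the regions and 10.07% in bins late in all 3 maps. Pseudogenes had 282 of 4055 (6.95%) in the regions and 19.98% in bins late in all 3 maps, and snoRNA genes 187 of 1458 (12.8%) and 19.9%. Of 1232 lincRNA genes 41 (3.33%) started in the regions and 40 in bins late in all 3 maps.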
